A study of Mus musculus with 24 samples.

Results

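The response of LncMyoD knockout clone 2 to MyoD virus was measured in 8 of the 24 RNA-seq libraries of the series. The tested libraries were 4 with virus, namely 2 from clone 2 cells given MyoD adenovirus and 2 from clone 2 cells given MyoD adenovirus and LncMyoD plasmid. The 4 without virus were 2 from untreated clone 2 cells and 2 from clone 2 cells given LncMyoD plasmid alone. All 8 came from a single knockout clone of C3H 10T1/2, fibroblasts of mouse embryo origin, so clone and knockout cannot be told apart, and whether 2 libraries of a group came from separate cultures is not stated. The p-values therefore measure only the spread between these libraries, which may be technical. The labels give, in the same words for every group, growth in 10% fetal bovine serum and 2% horse serum after transdifferentiation. They do not state whether cells without virus were moved to horse serum too, so whether the medium differed between the groups is not known. No group used here is labelled as given an empty virus or plasmid.

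MyoD, encoded by Myod1, is a basic helix-loop-helix transcription factor that binds E-boxes, short DNA motifs of the form CANNTG, and can turn fibroblasts into muscle cells. In a myoblast that leaves the cell cycle it acts with myogenin and the MEF2 factors, the cells fuse, and the genes of the contractile apparatus come on. Growth factors in serum keep myoblasts dividing, through ERK signalling and a group of immediate early genes. LncMyoD is a long noncoding RNA transcribed next to Myod1 and studied for its part in muscle differentiation.

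The promoter windows of 4 genes are shown because these genes mark opposite ends of the response: Myog and Mylpf were listed above 0 only with virus, and Fos and Nr4a1 were among the genes that fell most. Each window runs from 250 bases before to 50 bases after the annotated start (RefSeq, GRCm38.p6, plus strand). They lie at chr1:134289754-134290053 (Myog), chr7:127211358-127211657 (Mylpf), chr12:85473640-85473939 (Fos) and chr15:101266596-101266895 (Nr4a1). Capitals mark CANNTG in Myog and Mylpf, and TGACG or CGTCA, the same letters on the other strand, which hold the core of the cAMP response element, in Fos and Nr4a1.
Myog: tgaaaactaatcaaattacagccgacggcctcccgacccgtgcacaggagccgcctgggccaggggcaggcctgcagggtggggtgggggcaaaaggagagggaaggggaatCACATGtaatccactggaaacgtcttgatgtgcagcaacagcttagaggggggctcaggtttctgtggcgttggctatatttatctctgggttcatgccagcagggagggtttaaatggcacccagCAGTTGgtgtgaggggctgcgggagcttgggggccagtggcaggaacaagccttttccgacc
Mylpf: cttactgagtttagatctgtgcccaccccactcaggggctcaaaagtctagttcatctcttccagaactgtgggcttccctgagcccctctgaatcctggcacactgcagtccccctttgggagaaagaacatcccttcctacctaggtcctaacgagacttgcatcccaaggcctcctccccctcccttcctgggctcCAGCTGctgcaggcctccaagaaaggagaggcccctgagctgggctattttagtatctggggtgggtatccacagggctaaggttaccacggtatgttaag
Fos: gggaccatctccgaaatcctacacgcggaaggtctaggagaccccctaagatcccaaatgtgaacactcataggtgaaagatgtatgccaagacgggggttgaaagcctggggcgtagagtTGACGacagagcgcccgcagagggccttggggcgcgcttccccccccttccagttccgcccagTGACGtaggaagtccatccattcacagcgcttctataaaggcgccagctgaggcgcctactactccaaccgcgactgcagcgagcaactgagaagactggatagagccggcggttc
Nr4a1: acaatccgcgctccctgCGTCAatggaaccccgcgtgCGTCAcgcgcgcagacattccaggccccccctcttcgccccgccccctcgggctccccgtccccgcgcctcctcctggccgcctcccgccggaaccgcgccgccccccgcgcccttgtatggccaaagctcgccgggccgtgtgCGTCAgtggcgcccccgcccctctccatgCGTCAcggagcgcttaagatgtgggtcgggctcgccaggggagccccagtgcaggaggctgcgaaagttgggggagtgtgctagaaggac
CANNTG reads the same on both strands in its fixed letters and was found in 72.3% of all 32851 windows of this length. Its form CAGCTG, which is also a CANNTG, was in 16.3% of all windows and in 26 of 48 windows (54.2%) of the muscle genes called higher under their reference names or with unnamed transcripts added, 2 measures described below. TGACG or CGTCA stood in 20.8% of all windows, in 32.6% of the windows of genes tested, and in 13 of 21 windows (61.9%) of the immediate early genes called lower in either measure, against 5 of 48 (10.4%) for those muscle genes. These matches describe letters in a window and not bound sites.

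Values below are TPM, the share of a transcript in the library after correction for its length, summed per reference gene and scaled between libraries, and are called scaled TPM. Where 4 values are given for a group, those with virus run virus alone replicates 1 and 2, then virus with plasmid replicates 1 and 2. Those without virus run untreated replicates 1 and 2, then plasmid alone replicates 1 and 2. Changes are log2 of scaled TPM + 1, with virus over without, with the plasmid as a block. A gene was called at an adjusted p under 0.05 (limma, Benjamini-Hochberg over all genes tested) and a log2 change whose size was 1 or more. Many transcripts in the files carry no reference gene name, so each call was repeated after adding unnamed transcripts to the gene whose exons they overlap, and a call that held there as well is said to hold in both measures. A fit over all 24 libraries of the series, which then share 1 estimate of the spread, is named where it ended a call that had held in both measures.

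The virus was seen in every library labelled with it. Myod1 (chr7:46376474-46379099) stood at 1286, 1144, 1275 and 1245 scaled TPM with virus, against 1.17, 0.874, 1.25 and 0 scaled TPM without. All 4 libraries with virus were far above all 4 without, a log2 change of 9.47 ± 0.26 (SE; adjusted p = 6.31e-06, limma). Reads of the virus and of the cell's own Myod1 cannot be told apart in these values. At the LncMyoD locus a transcript of 621 nt with 2 exons (chr7:46345772-46351188, minus strand) was listed at 4.48 and 3.47 TPM in cells with virus and plasmid, and at 11.9 and 11 TPM in cells with plasmid alone. It was absent from the 4 clone 2 libraries without plasmid, and also from the wild type libraries without plasmid, so its absence does not check the knockout.

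The muscle program rose in clone 2 as a broad set of contractile, membrane, fusion and energy genes, several of them listed at 0 without virus under their reference names. Of the 173 members of 7 lists of muscle genes, 67 passed the filter on low values, and 24 of these were called higher and 5 lower, against 2.23% called higher and 9.96% called lower among all 11963 genes tested. Of the 24, 23 held in both measures. With unnamed transcripts added, 119 members were measured, 53 of them called higher and 4 lower, against 2.76% higher and 6.78% lower among all genes in that measure. A gene that passed the filter only through its libraries with virus had to differ, so these counts describe the members and test nothing about the lists.

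Among the regulators of differentiation, Myog, which encodes myogenin (chr1:134289989-134292548), was listed at 105, 54.0, 89.5 and 122 scaled TPM with virus and at 0 in all 4 libraries without (adjusted p = 6.74e-05, limma). Mef2c, a MEF2 factor that works with MyoD, stood at 7.72, 1.52, 3.57 and 3.31 scaled TPM with virus and 3.44, 2.68, 3.27 and 1.41 scaled TPM without, groups that overlapped (log2 change 0.34, adjusted p = 0.63, limma). Its log2 change was -0.36 with unnamed transcripts added (adjusted p = 0.377, limma), so no direction can be given. The muscle factors Pax7 and Myf6 were listed at 0 in all 8 libraries. Of 9 regulators tested, 2 were called higher, Myod1 itself and Myog, and both held. Mef2d was called lower at a log2 change of -2.24, with libraries of the groups overlapping, and did not hold when unnamed transcripts were added. The list's median log2 change was 0.34, beside -0.18 over all genes.

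The thin filament carries actin, tropomyosin and the troponin complex that makes contraction depend on calcium. Of 10 thin filament genes tested, 6 were called higher and none lower, all 6 in both measures, with a list median of 2.54 that depends on the pseudocount for the genes listed at 0. Acta1, skeletal muscle alpha-actin, had 260, 124, 168 and 255 scaled TPM with virus, against 4.0, 3.9, 2.46 and 2.33 scaled TPM without. These average 202 ± 67.2 with virus and 3.17 ± 0.90 without (SD, n = 4 each), a log2 change of 5.56 ± 0.29 (adjusted p = 8.99e-05, limma). Tnnc2, fast troponin C, was listed at 254, 120, 203 and 233 scaled TPM with virus and at 0 in all 4 libraries without (adjusted p = 1.94e-05, limma). The fast inhibitory subunit Tnni2 was listed at 13.2, 17.9, 15.2 and 25.0 scaled TPM with virus and again at 0 in every library without. Of the libraries without virus, 1 had 1.11 scaled TPM of Tnnc2 and 1 had 1.53 of Tnni2 with unnamed transcripts added.

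Tnnc1, the slow and cardiac troponin C, stood at 151, 70.3, 92.2 and 150 scaled TPM with virus and was listed at 0 in all 4 libraries without under its reference name. With unnamed transcripts added it had 2.92 to 13.1 scaled TPM without virus and 73.8 to 159 with it, a log2 change of 3.69. Its 0 values under the reference name thus stand beside unnamed transcripts that overlap its exons, and whether these are Tnnc1 was not tested. Tpm2, beta-tropomyosin, had a level without virus already, at 244, 174, 207 and 186 scaled TPM with virus against 55.7, 52.6, 42.3 and 50.2 scaled TPM without (log2 change 1.99 ± 0.13, and 1.16 with unnamed transcripts added). Tnnt2, cardiac troponin T, failed the filter under its reference name. With unnamed transcripts added it had 65.5, 51.1, 63.4 and 103 scaled TPM with virus, against 1.06, 0, 1.22 and 0.884 scaled TPM without.

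The thick filament and the elastic titin filament followed the same pattern. Mylpf, the fast regulatory light chain of myosin (chr7:127208890-127214298), was listed at 289, 152, 244 and 222 scaled TPM with virus and at 0 in all 4 libraries without (adjusted p = 1.22e-05, limma). Myl1, an essential light chain, was listed at 225, 78.5, 190 and 198 scaled TPM with virus and at 0 in all 4 without, where 1 library had 3.02 with unnamed transcripts added. In both genes, as in Acta1 and Tnnc2, the lowest library with virus was virus alone replicate 2, which was still far above every library without. Of 3 thick filament genes tested, 2 were called higher, and 6 of 9 with unnamed transcripts added.

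Very long muscle genes were seen almost wholly through unnamed transcripts. Ttn, which encodes titin, had 88.0, 63.2, 80.2 and 65.2 scaled TPM with virus in that measure and was listed at 0 in all 4 libraries without (adjusted p = 3.26e-06, limma). Myh3, the embryonic myosin heavy chain, had 15.2, 15.8, 9.12 and 21.1 scaled TPM with virus and was also at 0 without. Des, which encodes the intermediate filament protein desmin, had 30.7, 8.10, 18.5 and 11.5 scaled TPM with virus and 3.41, 7.25, 4.68 and 6.25 without, a smaller change of 1.39 ± 0.42 (adjusted p = 0.0461, limma). Of 6 titin, Z-disc and M-band genes tested under their reference names only Trim54, a muscle ring-finger protein, was called, and 9 of 16 were called higher with unnamed transcripts added.

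Genes of the muscle membrane and the nerve contact rose as well. Of 9 tested, 5 were called higher and none lower, all 5 in both measures, with a list median of 1.79 that depends on the pseudocount. Chrng, the subunit of the embryonic acetylcholine receptor, was listed at 20.7, 18.6, 10.6 and 21.6 scaled TPM with virus, and Chrna1, its ligand-binding alpha subunit, at 9.79, 7.06, 5.92 and 6.03 scaled TPM. Both genes were listed at 0 in all 4 libraries without virus. Rapsn, which clusters that receptor, had 26.6, 25.7, 13.2 and 8.33 scaled TPM with virus against 2.77, 4.94, 4.10 and 5.07 scaled TPM without (log2 change 1.78 ± 0.40, adjusted p = 0.0166, limma). Ryr1, the calcium release channel, was measured only with unnamed transcripts added, at 25.8, 23.3, 22.2 and 12.5 scaled TPM with virus and 0.0353, 0, 0 and 0 without.

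The fusion genes split in direction. Mymk, which encodes the membrane fusion protein myomaker, had 25.6, 7.91, 24.2 and 33.5 scaled TPM with virus, against 0, 0.871, 0 and 0 scaled TPM without (log2 change 4.19 ± 0.51, adjusted p = 0.00145, limma). Mymx, its partner myomixer, had 12.5, 4.89, 9.19 and 10.2 scaled TPM with virus, against 0, 0.192, 2.28 and 0 scaled TPM without (2.80 ± 0.48, adjusted p = 0.00571). Groups overlapped in neither. The adhesion genes Vcam1 (log2 change -1.65), Itgb1 (-1.55) and Cdh2 (-1.17) were called lower and held in both measures, so of 12 fusion genes tested 2 rose and 3 fell. All 3 falls lost their call over all 24 libraries, with adjusted p of 0.0676 for Vcam1, 0.506 for Itgb1 and 0.471 for Cdh2 (limma). The call for Cdh2 was lost in 5 of the 8 fits that left out 1 library, namely virus alone replicate 1, virus with plasmid replicate 1, untreated replicate 2 and either plasmid library, with adjusted p of 0.05039 to 0.06734 (limma).

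Energy genes of muscle rose in 6 of 18 tested members and 1 was called lower. Ckm, muscle creatine kinase, was listed at 11.6, 5.71, 6.66 and 5.19 scaled TPM with virus and at 0 in all 4 without. Cox8b, a muscle form of a cytochrome c oxidase subunit, was listed at 37.3, 12.2, 36.2 and 40.8 scaled TPM with virus and also at 0 without. Eno3, muscle enolase, had 78.3, 35.9, 56.5 and 98.1 scaled TPM with virus and 22.7, 21.2, 21.8 and 21.3 without, a gene with a steady level before the virus. Pgam2, muscle phosphoglycerate mutase, rose with a log2 change of 4.07 ± 0.61 (adjusted p = 0.0033, limma). The 1 energy gene called lower, Phka1, a phosphorylase kinase subunit, did not hold with unnamed transcripts added (-0.22, adjusted p = 0.697), and none of 10 muscle splicing regulators was called.

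**Figure D1:**
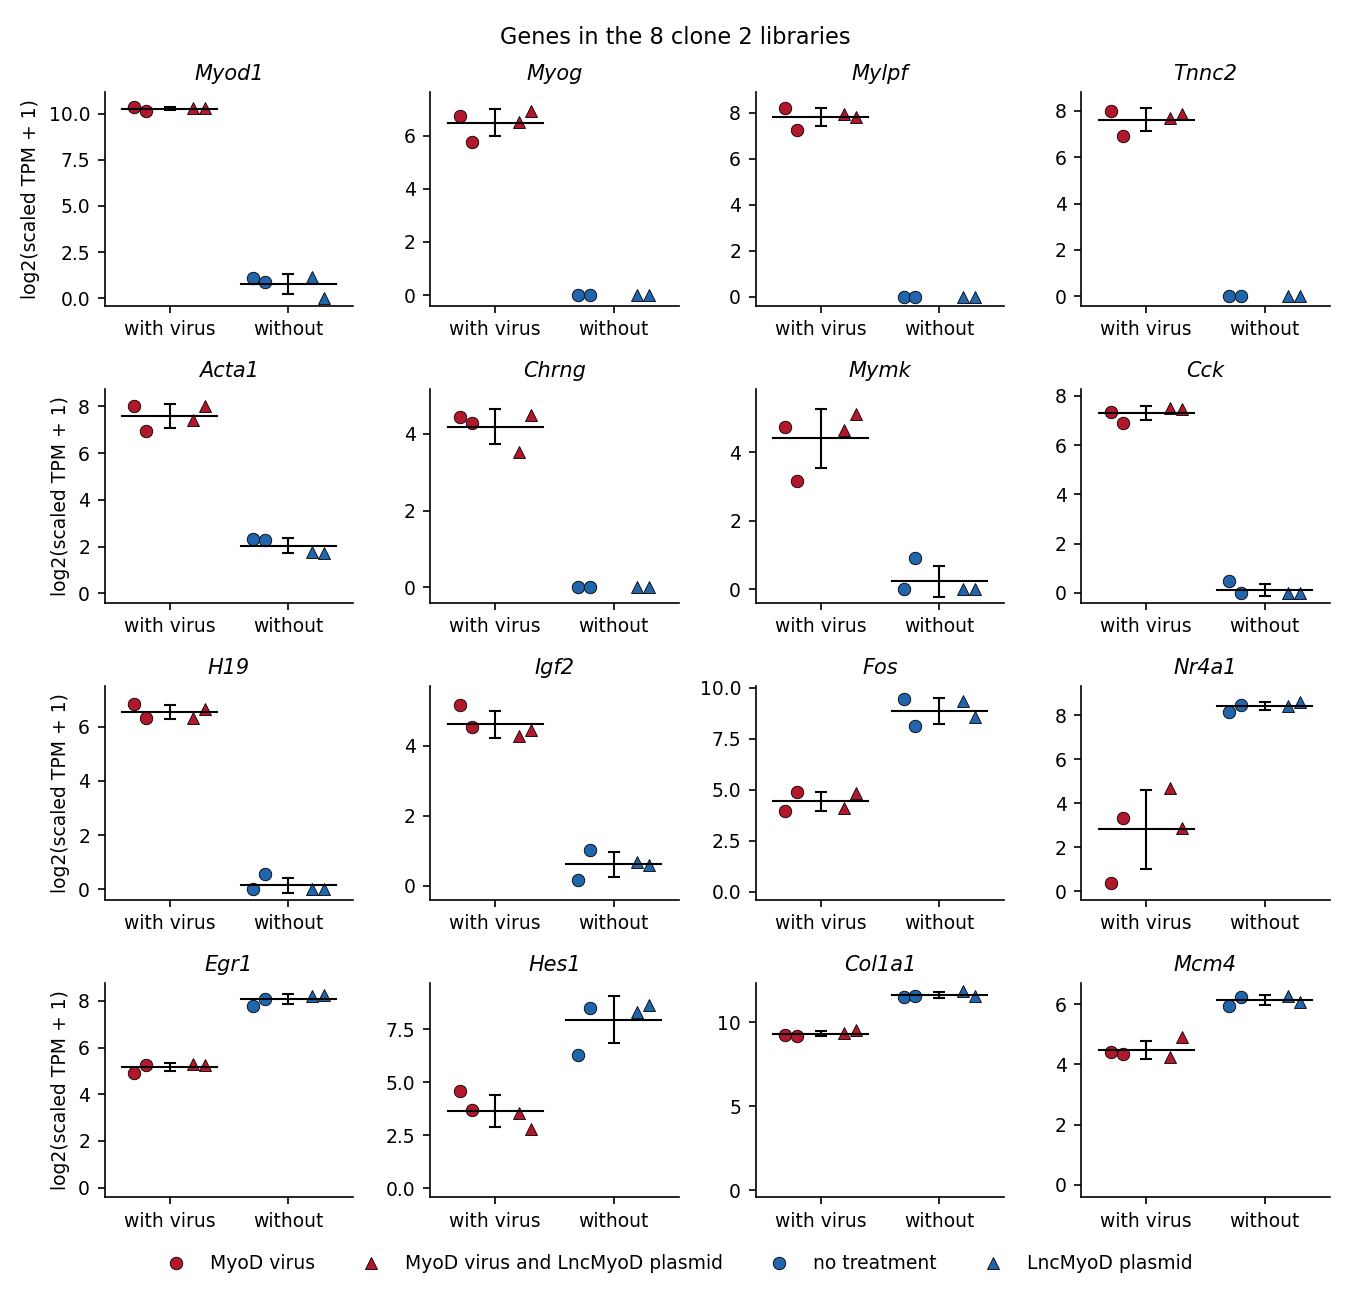
Scaled TPM of 16 genes in the 8 clone 2 libraries on a log2(scaled TPM + 1) axis, with the 4 libraries with virus left of the 4 without; lines and bars give the mean and SD of 4 libraries, and a group listed at 0 throughout has points only. The groups do not overlap in any panel, and Myog, Mylpf, Tnnc2 and Chrng are at 0 in all 4 libraries without virus.

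Imprinted growth genes moved in both directions. H19, an imprinted noncoding RNA that is abundant in embryonic muscle, had 115, 79.6, 79.3 and 100.6 scaled TPM with virus, against 0, 0.465, 0 and 0 scaled TPM without (log2 change 6.41 ± 0.28, adjusted p = 3.89e-05, limma). Its neighbour Igf2, the growth factor gene, had 34.5, 22.3, 18.3 and 21.0 scaled TPM with virus and 0.126, 1.01, 0.599 and 0.504 without (3.99 ± 0.35, adjusted p = 0.000471, and 4.91 with unnamed transcripts added). Meg3 fell to 15.7, 34.5, 50.8 and 29.1 scaled TPM with virus, against 96.1, 97.6, 106 and 127 without, and Mest fell to 271 to 350 scaled TPM with virus, against 658 to 839 without. Of the genes for binding proteins that hold IGF outside cells, only Igfbp3 and Igfbp2 were called lower under their reference names. Igfbp3 was listed at 0 in all 4 libraries with virus and at 6.05, 7.65, 9.55 and 9.23 scaled TPM without. In the second measure, with unnamed transcripts added, Igfbp3 had 2.14, 3.80, 0 and 2.53 with virus and 6.13, 7.92, 9.54 and 9.17 without. Of 18 genes of this list tested, 2 rose and 4 fell, all 6 in both measures, beside 1.74% and 5.71% of all genes. The log2 change of Meg3 shrank to -0.93 (adjusted p = 0.0219, limma) once the trend with gene length described below was removed, under the size of a call.

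The gene with the largest rise outside muscle biology was Cck, which encodes the peptide hormone cholecystokinin. It had 162, 119, 180 and 177 scaled TPM with virus, against 0.409, 0, 0 and 0 scaled TPM without (log2 change 7.18 ± 0.26, adjusted p = 1.94e-05, limma). The 4 libraries with virus lay close together and far from the others. Its levels with virus overlapped those of the myosin light chains Mylpf and Myl1. The size of its change depends on the pseudocount, at 10.04 with 0.1 and 4.995 with 5.

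The immediate early genes, which growth factors switch on within minutes, fell nearly as a block. Of 21 tested, 18 were called lower and none higher, 17 of them in both measures, beside 5.71% of all genes called lower in both. The list's median log2 change was -2.32, beside -0.18 over all genes. Its summed level was 561.9 to 776.1 scaled TPM with virus and 3087 to 3874 without. Under quantile normalization 17 were called lower and 1 higher.

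Fos, a subunit of the AP-1 transcription factor, fell to 14.6, 28.3, 16 and 27.1 scaled TPM with virus, against 698, 280, 639 and 376 scaled TPM without. The means were 21.5 ± 7.18 with virus and 498 ± 202 without (SD, n = 4 each), a log2 change of -4.43 ± 0.36 (adjusted p = 0.000358, limma), and the highest library with virus was below the lowest without. Nr4a1, an orphan nuclear receptor gene, had 0.307, 9.0, 24.9 and 6.25 scaled TPM with virus, against 286, 351, 345 and 393 without (-5.61 ± 0.72, adjusted p = 0.00172, and -4.26 with unnamed transcripts added). Egr1, a zinc finger factor of the same response, fell with little spread, to 28.9, 36.7, 37.8 and 36.7 scaled TPM with virus, against 222, 268, 291 and 309 without (-2.92 ± 0.11, adjusted p = 1.94e-05, limma). Egr2, Fosb and Junb fell too, with log2 changes of -4.64, -4.40 and -1.89.

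Among the members that fell by less, Myc, a driver of growth, had 9.97, 10.1, 19.9 and 11.5 scaled TPM with virus, against 45.8, 67.8, 58.4 and 59.3 without (-2.12 ± 0.23, adjusted p = 0.000919, limma). Jun fell by 1.36 and Klf6 by 1.5 on the log2 scale. Jund, a Jun relative, went the other way without reaching the size of a call, at 16.8, 15.7, 12.4 and 14.5 scaled TPM with virus and 7.31, 5.15, 7.54 and 8.18 without (0.99, adjusted p = 0.0316, limma). The phosphatase genes that ERK signalling turns on against itself were lower in 3 of 7 members tested. All 3 held in both measures, beside 5.71% of all genes called lower in both. Dusp1 had 19.8, 33.8, 41.9 and 56.4 scaled TPM with virus and 278, 157, 310 and 240 without, and Dusp6 had 4.85, 0, 12 and 2.92 with virus and 42.1, 83.0, 57.9 and 71.8 without.

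Of the factors that restrain MyoD, Hes1, a Notch target that represses helix-loop-helix genes, fell to 22.9, 11.9, 10.8 and 5.91 scaled TPM with virus, against 78.5, 367, 320 and 407 without (-4.30 ± 0.60, adjusted p = 0.00247, limma). Hes6, a relative known to favour differentiation, rose to 138, 112, 97.4 and 146 scaled TPM with virus, against 51.4, 36.1, 48.7 and 49.0 without (1.39 ± 0.18, adjusted p = 0.00169, and 0.122 over all 24 libraries, limma). The Id proteins tie up the partners of MyoD, and they were not called. Id1 stood at 226, 212, 249 and 232 scaled TPM with virus and 202, 200, 204 and 174 without (0.24 ± 0.09, adjusted p = 0.0983, and -0.03 without scaling). Id3 stood at 369, 323, 361 and 363 with virus and 495, 548, 497 and 528 without (-0.55 ± 0.08, adjusted p = 0.00247, under the size of a call). Of 18 genes of this list tested, 1 was called higher and 5 lower, beside 2.23% and 9.96% of all genes. In both measures 1 was higher and 2 lower, beside 1.74% and 5.71% of all genes. With the length trend removed, 2 were lower. The calls for Jag1, Notch1 and Tcf12 were not held, with log2 changes of 0.15, -0.75 and -0.36 when unnamed transcripts were added.

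Fibroblast matrix genes fell as the second large group. Of 46 tested, 19 were called lower and none higher, 16 of them in both measures, beside 9.96% and 5.71% of all genes called lower. The list's median was -1.13 in each measure, beside -0.18 and -0.07 over all genes. Col1a1, the main chain of type I collagen, had 604, 581, 651 and 754 scaled TPM with virus, against 2921, 3068, 3829 and 3036 scaled TPM without. That is 648 ± 76.8 with virus and 3214 ± 415 without (SD, n = 4 each), a log2 change of -2.31 ± 0.10 (adjusted p = 2.95e-05, limma). Col3a1 fell by the same amount, to 486 to 729 scaled TPM with virus, against 2391 to 3401 without. Not every matrix gene moved: Sparc, a secreted matrix protein gene, had 2620, 2296, 2533 and 3167 scaled TPM with virus and 2452, 2936, 2418 and 4060 without (-0.14, adjusted p = 0.602).

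Some of the largest falls in this group shrank when unnamed transcripts were added. Col6a1 had 228, 0.0154, 0.0121 and 0.0165 scaled TPM with virus, against 920, 993, 1072 and 1056 without, a log2 change of -8.00 that rests on 3 libraries with nearly none. With unnamed transcripts added it had 232, 395, 445 and 561 scaled TPM with virus, against 930, 1028, 1071 and 1065 without (-1.39, adjusted p = 0.00144, limma). The fall held, at a much smaller size. Col4a2, Col5a1 and Eln likewise changed by -4.65, -4.24 and -4.59 under their reference names and by -1.19, -1.24 and -1.25 with unnamed transcripts added. Over all 24 libraries Col4a2 (adjusted p = 0.207, limma) and Col5a1 (0.09967) lost their calls.

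Targets of YAP and SRF, factors that read tension and the actin skeleton, were lower in 8 of 23 members tested, all 8 in both measures. That stands beside 5.71% of all genes called lower in both, and 5 members were called lower with the length trend removed. Ccn1, a secreted matricellular protein gene, had 41.0, 98.5, 78.8 and 88.9 scaled TPM with virus, against 787, 1190, 1176 and 1496 scaled TPM without (-3.94 ± 0.27, adjusted p = 0.000237, and -3.25 with unnamed transcripts added). The groups did not overlap in this gene. Acta2, smooth muscle actin, stood at 624 to 786 scaled TPM with virus and 461 to 561 without, under the size of a call (0.48, adjusted p = 0.0132, limma).

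Genes of DNA replication and division were lower in part. Of 26 S phase genes tested, 5 were called lower and none higher, all 5 in both measures, beside 5.71% of all genes called lower in both, with a median of -0.91. With the length trend described below removed, 2 of the list were called lower. Mcm5, Mcm4, Rrm1 and Rrm2 lost their calls over all 24 libraries, with adjusted p of 0.164 to 0.678 (limma). Of the 5, Mcm5, a subunit of the replicative helicase, lost its call when any library other than the 2 with virus and plasmid was left out (adjusted p of 0.0657 to 0.127, limma). Mcm4, of the same helicase, had 20.2, 19.4, 17.8 and 28.7 scaled TPM with virus, against 59.8, 74.8, 76.1 and 66.0 without (-1.66 ± 0.18, adjusted p = 0.000892, limma). Of 23 mitotic genes tested, 11 were called lower, 6 of them in both measures, beside 9.96% and 5.71% of all genes. Their medians were -1.47 and, with unnamed transcripts added, -0.81. Cdc20, an activator of anaphase, had 21.8, 19.3, 25.1 and 32.8 scaled TPM with virus, against 66.4, 61.1, 61.4 and 56.0 without (-1.3 ± 0.17, adjusted p = 0.00196).

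The markers of proliferation and arrest did not all follow. Mki67 failed the filter, and with unnamed transcripts added it had 6.41, 2.74, 3.64 and 8.71 scaled TPM with virus and 8.79, 7.20, 6.44 and 19.99 without (-0.83 ± 0.42, adjusted p = 0.205, limma). Cdkn1a, the p21 inhibitor gene, stood at 1196, 1014, 1055 and 1209 scaled TPM with virus and 742, 700, 804 and 766 without. The groups did not overlap, but the change of 0.57 ± 0.08 (adjusted p = 0.00318) was under the size of a call, and 0.30 without scaling (adjusted p = 0.107). Ccnd1, cyclin D1, was at 139 to 186 scaled TPM with virus and 107 to 131 without (0.50 ± 0.12, adjusted p = 0.0224, limma). Of 20 genes linked to cell cycle exit, 2 were called lower, a share close to the 9.96% of all genes: Btg2 at -2.67 and Gadd45b at -1.14. Gadd45b was not called over all 24 libraries (adjusted p = 0.0501, limma). None of 18 p53 targets was called.

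Genes of the endoplasmic reticulum stress and amino acid response fell, with 10 of 24 tested called lower and none higher, all 10 in both measures. That compares with 5.71% of all genes called lower in both, and the list's median was -0.98. Ppp1r15a, which restores translation after stress, had 28.6, 26.6, 29.0 and 36.6 scaled TPM with virus, against 192, 229, 267 and 249 without (-2.91 ± 0.11, adjusted p = 1.94e-05, limma). Hspa5, the chaperone BiP, had 186, 178, 188 and 290 scaled TPM with virus, against 430, 674, 654 and 901 without (-1.64 ± 0.20, adjusted p = 0.00134). Atf3, which is counted in the early gene list too, changed by -3.40 and was not called over all 24 libraries (adjusted p = 0.108, limma). Pdia4 of this list changed by -1.73 and lost its call in that fit as well (adjusted p = 0.256, limma).

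Interferon response genes were called in both directions, with 20 of 30 not called. Of the 30, 7 were called higher and 3 lower, beside 2.23% and 9.96% of all genes, and 6 and 2 of them held in both measures, with a median of 0.74. Without scaling 6 were higher and 4 lower. Ifit1, an antiviral protein gene, had 105, 104, 71.0 and 129 scaled TPM with virus, against 21.7, 31.5, 13.4 and 26.6 without (2.11 ± 0.27, adjusted p = 0.00183, limma). Isg15, a ubiquitin-like modifier, had 43.4, 29.6, 22.2 and 31.4 with virus and 6.31, 9.91, 10.2 and 5.64 without (1.86 ± 0.29, adjusted p = 0.00371). Irf1, a transcription factor of that pathway, went the other way, at 61.2, 41.4, 42.7 and 53.8 with virus and 127, 269, 219 and 260 without (-2.07, adjusted p = 0.229 over all 24 libraries, limma). In that fit Ifit3, called higher in both measures, lost its call too (adjusted p = 0.0972, limma). Lgals3bp, called lower in both, changed by -0.94 there, under the size of a call. Of 13 class I antigen presentation genes, 5 were called lower, 4 of them in both measures, beside 9.96% and 5.71% of all genes, and 2 with the length trend removed. Tap1, a peptide transporter subunit, lost its call when any library but the 2 with virus alone was left out (adjusted p of 0.0647 to 0.110, limma). Over all 24 libraries Tap1, Tap2 and Tapbp lost theirs, with adjusted p of 0.0501 to 0.388 (limma). Pdia3, the other member that held in both measures, changed by -0.90 there (adjusted p = 0.0265, limma), under the size of a call.

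**Figure D2:**
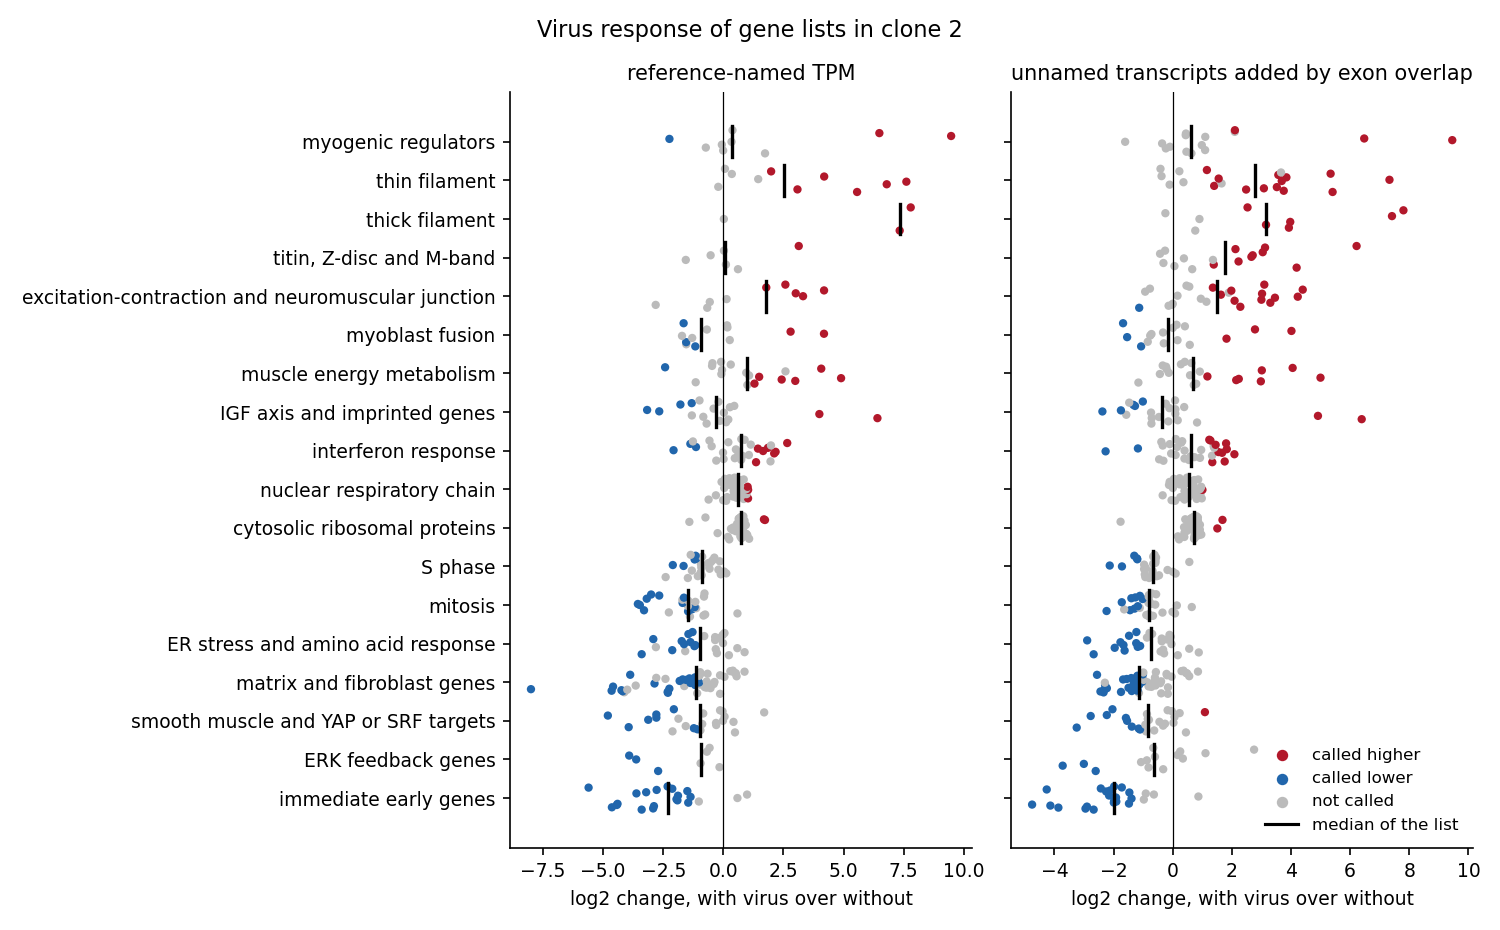
Log2 change with virus over without for the tested members of 18 gene lists (rows) in clone 2, for reference-named TPM on the left and with unnamed transcripts added on the right; each point is a gene, red called higher, blue called lower, grey not called, and the bar is the list's median. Filament genes lie mostly right of 0 and early genes mostly left of 0 in both panels, and the extreme falls of matrix genes are smaller on the right; values of genes listed at 0 in a group depend on the pseudocount of 1.

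Few genes of energy supply and translation were called. The 39 nuclear respiratory chain genes had a median log2 change of 0.59. Of these, 3 were called higher and 1 of them in both measures, beside 2.23% and 1.74% of all genes. The 13 mitochondrially encoded genes had a median of 0.72 and the 38 ribosomal protein genes 0.73, with 0 and 2 called. Without scaling these medians were 0.32, 0.45 and 0.46, beside -0.41 over all genes, and under quantile normalization they were 0.42, 0.10 and 0.50, beside 0.10. Mitochondrial genes held 9.34% to 14.0% of TPM in libraries with virus and 7.91% to 10.2% without, and their part in these shifts was not tested. Among 22 redox genes, many under the factor Nrf2, Gpx4 alone was called, at 1.03.

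Lists of fates other than muscle gave few calls. None of 8 adipocyte genes and 2 of 7 cartilage and bone genes were called, Col11a1 and Matn2, both lower, and Matn2 lost its call over all 24 libraries (adjusted p = 0.501, limma). Markers of other cell types were low under their reference names. Of 12 genes each, 7 macrophage, 6 neuron, 5 epithelium, 5 endothelium and 5 heart markers were listed at 0 in all 8 libraries, among them Epcam, Cdh5 and Nkx2-5. Summed levels were 9.10 to 23.9 scaled TPM with virus and 0.34 to 8.32 without for the heart list, and 21.4 to 44.9 with virus and 43.8 to 60.6 without for the endothelium list. Macrophage, neuron and epithelium lists stayed under 12 scaled TPM in every library under their reference names. In the second measure the neuron list summed to 13.5 to 24.8 scaled TPM with virus and 21.2 to 26.0 without, the macrophage list to 7.18 to 13.7 with virus and 4.42 to 8.84 without, and the heart list to 29.2 to 41.7 with virus and 13.1 to 18.5 without. Of 4 heart markers measured there, 1 was called higher and 0 lower. The part of such cells in the results was not tested. Of the 3 endothelium genes tested Tek and Eng were called lower but not in both measures. The call for Tek was also lost in 6 of the 8 fits that left out 1 library, all but those without virus with plasmid replicate 2 and plasmid alone replicate 2, with adjusted p of 0.072 to 0.0894 (limma).

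Across all genes, 1459 of 11963 were called, 267 higher (2.23%) and 1192 lower (9.96%), with a median log2 change of -0.18. The balance depended on the scaling: without scaling 112 were higher and 1661 lower (median -0.41), and under quantile normalization 843 were higher and 838 lower (median 0.10). In both measures 208 were higher (1.74%) and 683 lower (5.71%). Without any model, the 4 libraries with virus did not overlap the 4 without in 1701 genes that were higher (14.2%) and 1849 that were lower (15.5%). The first principal component, with 39.1% of the variance, separated the 4 libraries with virus from the 4 without, and Pearson's r across genes was 0.837 to 0.867 between libraries with virus, 0.892 to 0.925 between those without, and 0.791 to 0.824 between the groups.

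The libraries with virus differed in the shape of the data as well. They listed 10416 to 10969 genes at 1 TPM or more, against 12568 to 13253 without virus. Coverage leaned more to the 3' end, with a median log2 ratio of the 5' over the 3' part of 2584 shared transcripts of -0.854 to -0.710 with virus and -0.467 to -0.306 without. The change also ran with gene length. Genes of up to 1 kb of exons had a median log2 change of 0.33 and genes over 8 kb one of -0.71, with 5.08% and 16.3% called lower. With unnamed transcripts added those medians were 0.31 and -0.25. When a trend with length was removed, 181 of the 267 higher calls and 740 of the 1192 lower calls were kept. The part of coverage and length in the falls of long genes was not tested further.

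**Figure D3:**
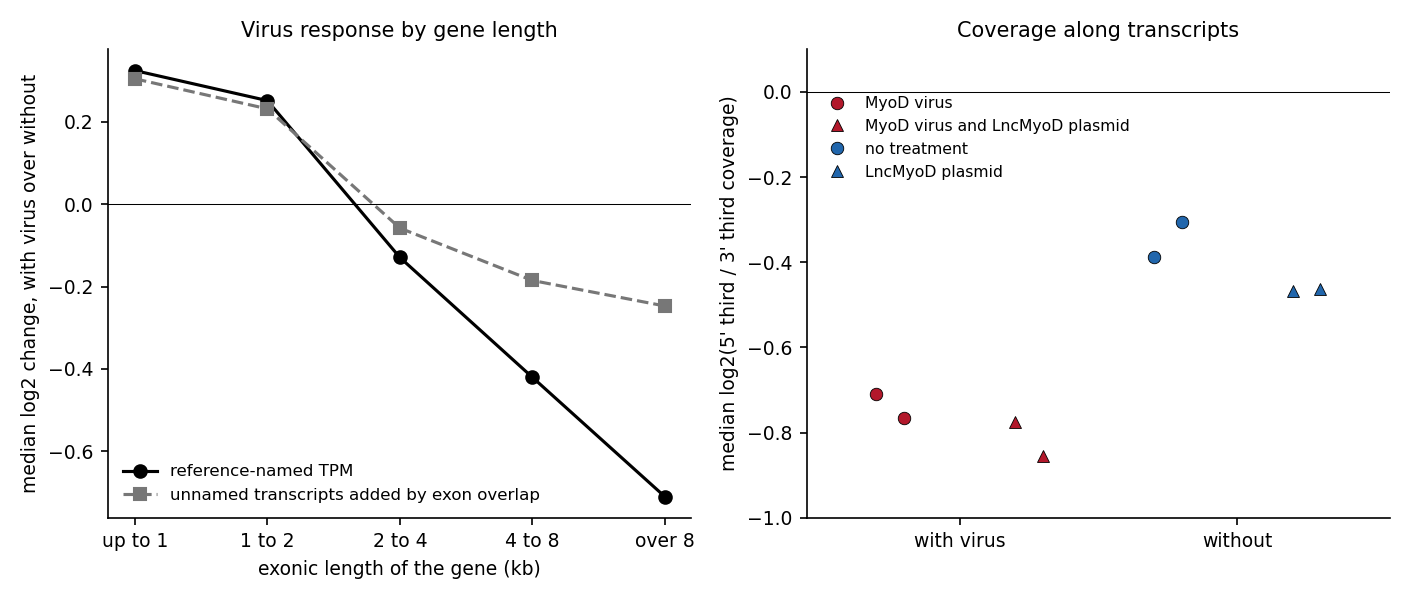
On the left, the median log2 change with virus over without by exonic length of the gene, for reference-named TPM (black) and with unnamed transcripts added (grey); on the right, the median log2 ratio of 5' over 3' coverage in each of the 8 libraries. Medians run down from 0.33 to -0.71 with length, less so with unnamed transcripts added, and all 4 libraries with virus lie below all 4 without.

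The virus response was compared between cells given the LncMyoD plasmid and cells not given it. In cells given the plasmid 198 genes were called higher (1.66%) and 592 lower (4.95%), and in cells without it 224 were higher (1.87%) and 618 lower (5.17%). Of the higher calls 90 were shared, 45.5% of those with the plasmid and 40.2% of those without, and of the lower calls 325 were shared, 54.9% and 52.6%. Fewer libraries stood behind each of these fits than behind the pooled one. The direct test of the difference called 6 genes, 3 higher and 3 lower (0.0251% each), with 744 at an unadjusted p under 0.05, and 0 genes once unnamed transcripts were added.

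The named genes called in that difference had levels that turned on the reference name. Col1a2, a type I collagen chain, had 19.8 and 12.2 scaled TPM with virus and plasmid, 16.5 and 12.2 with virus alone, 3193 and 2821 with plasmid alone, and 30.4 and 19.5 untreated, high in 1 of the 4 groups. With unnamed transcripts added it had 681 to 1067 scaled TPM with virus and 2508 to 3241 without, and fell by 1.75 on the log2 scale (adjusted p = 3.36e-05, limma). In Crk and Fam120a 1 group with virus was at 0 instead. Crk was at 0 in both libraries with virus and plasmid and at 35.5 and 55.4 scaled TPM with virus alone, and Fam120a at 41.3 and 39.2 with virus and plasmid and 0 in both with virus alone. No direction for the plasmid can be read from them, since the calls were lost in the other measure.

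**Figure D4:**
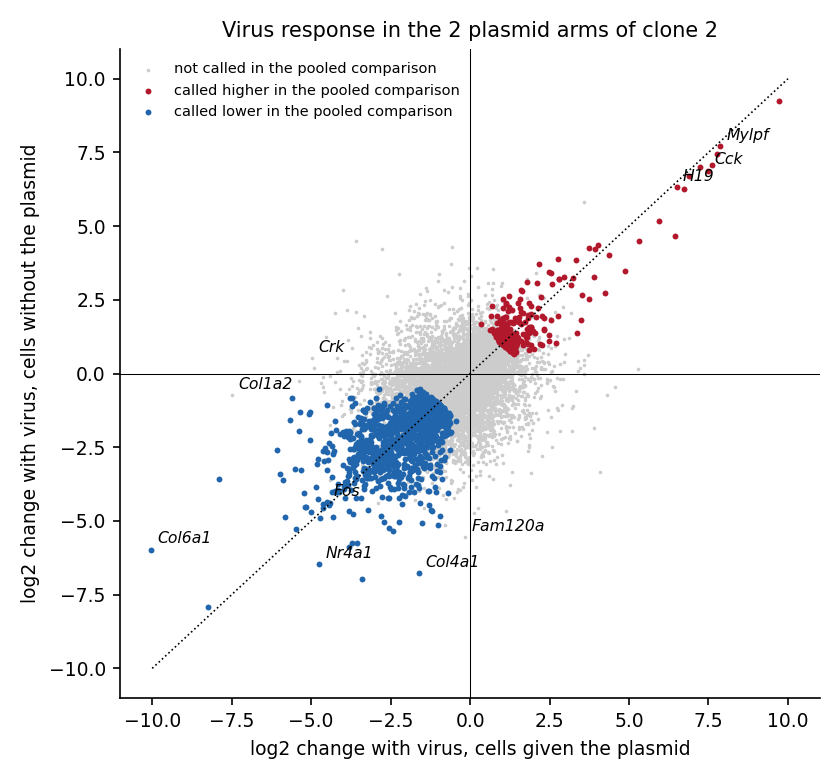
Log2 change with virus over without for each of 11963 genes, in cells given the plasmid (x axis) and in cells not given it (y axis); colour gives the call in the pooled comparison and the dotted line is equality. Crk, Col1a2, Fam120a and Col4a1, called in the difference, lie off the line, and Col4a1 was called in the pooled comparison too (-4.19, adjusted p = 0.018, limma). Some genes called only in the pooled comparison lie off it too, among them Col6a1 at -10.04 with the plasmid and -5.97 without.

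The response of clone 2 was set against that of wild type 10T1/2 cells in the same 4 treatments, fitted over 16 libraries on 14866 genes. The difference of responses was called in 527 genes, 211 higher in clone 2 (1.42%) and 316 lower (2.13%), of which 137 and 139 were also called with unnamed transcripts added. Without scaling it was 100 higher and 1187 lower. Leaving out 1 of the 4 clone 2 libraries without virus brought the count to 264 (untreated replicate 2), 298 (untreated replicate 1), 274 (plasmid replicate 1) and 288 (plasmid replicate 2). Ribosomal RNA windows held 2.68% to 7.90% of TPM in clone 2 and 55.6% to 69.2% in wild type, and the median log2 5' over 3' ratio over all transcripts measured in each library was -0.864 to -0.415 in clone 2 and 1.12 to 1.3 in wild type, so the line and these properties of the libraries cannot be told apart.

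The early genes gave the clearest difference. Of 22 tested, 9 had a lower response in clone 2 and none a higher one, all 9 in both measures: Egr1, Egr2, Fos, Fosb, Ier2, Ier3, Junb, Myc and Nr4a1. Among all 14866 genes 2.13% had a lower response, 139 of them in both measures. The list's median log2 change was -2.05 in clone 2 and -0.11 in wild type. In the scale of this fit, Fos had 15.7, 30.2, 16.9 and 28.7 scaled TPM in clone 2 with virus and 656, 260, 608 and 351 in clone 2 without. In wild type it had 336, 243, 225 and 486 with virus and 319, 308, 215 and 378 without, groups that overlapped. The difference of responses for Fos was -4.29 ± 0.54 (adjusted p = 0.00237, limma) and for Egr1 -2.67 ± 0.26 (adjusted p = 0.000537). Without virus, Egr1 stood at 209 to 288 scaled TPM in clone 2 and 4798 to 7421 in wild type. Nr4a1 stood at 269 to 367 and 1771 to 3891. These 2 genes thus started lower in clone 2, while Fos, Fosb and Egr2 overlapped between the lines without virus.

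Matrix genes differed in the same direction, with 8 of 47 tested lower in clone 2 and 6 of these in both measures. That stands beside 2.13% of all 14866 genes lower, 139 of them in both measures. Col1a1 had 619 to 800 scaled TPM in clone 2 with virus and 2744 to 3646 in clone 2 without, and 1049 to 1344 in wild type with virus and 1186 to 1272 in wild type without (difference -2.07 ± 0.12, adjusted p = 2.12e-05, limma). Wild type thus overlapped between its groups for this gene. Redox genes differed the other way, with 6 of 22 higher in clone 2 and 5 in both measures, among them Prdx1, a peroxiredoxin gene (1.34 ± 0.19, adjusted p = 0.00414), and Ftl1, ferritin light chain (1.12 ± 0.10, adjusted p = 0.000309). Among all 14866 genes 1.42% were higher, 137 of them in both measures.

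The muscle genes differed between the lines in a minority of members. Of 14 thin filament genes tested 4 had a higher response in clone 2, 1 of them in both measures, and of 19 energy genes 3 were higher, all 3 in both measures. These counts stand beside 1.42% of all 14866 genes higher, 137 of them in both measures. Myod1 itself stood at 1219 to 1385 scaled TPM in clone 2 with virus and 31060 to 42660 in wild type with virus, but its level without virus was also lower in clone 2, at 0 to 1.19 against 25.9 to 32.0, so the difference of responses was -0.57 ± 0.30 and not called (adjusted p = 0.355, limma). Acta1 (-0.15 ± 0.46), Myog (1.39 ± 0.50), H19 (-0.63 ± 0.41) and Cck (1.40 ± 0.68) were not called either, which does not show that the lines respond alike. These differences depend on the pseudocount where a line is listed at 0 without virus, and with unnamed transcripts added Myog was called higher in clone 2 at 1.93 (adjusted p = 0.0478, limma). Mylpf had 311, 162, 258 and 235 scaled TPM in clone 2 with virus and 10.2, 18.3, 20.5 and 28.3 in wild type with virus, and was listed at 0 without virus in both lines (adjusted p = 0.00374). Igf2 had a smaller response in clone 2, at 19.3 to 37.2 scaled TPM with virus and 0.118 to 0.943 without, against 2705 to 3772 with virus and 12.5 to 55.6 without in wild type (-3.06 ± 0.43, adjusted p = 0.00436).

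**Figure D5:**
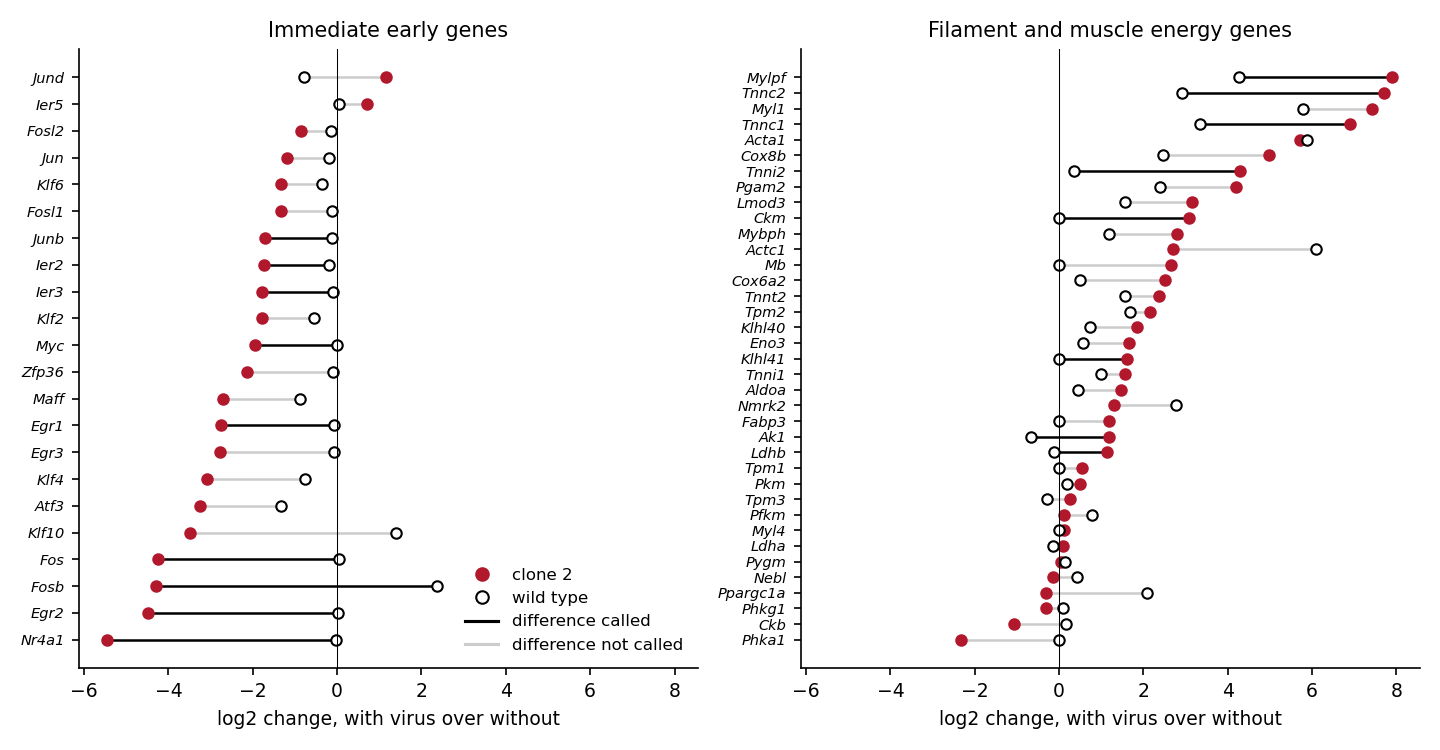
Log2 change with virus over without in clone 2 (filled) and in wild type (open) for 22 immediate early genes and for filament and muscle energy genes, with black bars where the difference of responses was called. Most early genes lie at negative values in clone 2 and near 0 in wild type, while Mylpf, Tnnc2 and Acta1 are positive in both; values of genes listed at 0 in a group depend on the pseudocount of 1.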

How the data were processed

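RNA of 8 clone 2 libraries and, for 1 comparison, 8 wild type libraries was measured with a low-input full-length cDNA kit that does not mark strand, tagmentation and paired reads of 100 nt, as the labels' protocols state. Tools named in the submitters' processing notes are Trimmomatic 0.36, HISAT2 2.1.0 and StringTie 1.3.3, with mm10 as the build, while the file headers name StringTie 2.1.2 guided by GENCODE vM21, with assembly of unannotated transcripts. Each deposited file lists the transcripts of 1 library with the authors' coverage, FPKM and TPM, and no read counts. Depth, from the ratio of coverage to FPKM, was 3.49 to 5.04 gigabases per clone 2 library. Reads per value could not be had, so values carry no counting interval.

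For each gene, TPM was added over its reference-named transcripts and scaled by the median of ratios, with factors of 0.813 to 1.151. A gene not listed in a library was set to 0, which can be a failed assembly. Where all 4 libraries of a group were at 0, no pooled fold is given. Where some were at 0, the log2 change given depends on the pseudocount. That of H19 was 9.23 with a pseudocount of 0.1 and 4.25 with 5. Differences between plasmid arms and between lines are also given where a group was at 0, and depend on it too. Unnamed transcripts held 17.5% to 27.4% of TPM. In the second measure they were added to the gene sharing at least 50% of their exonic length, an alternative chosen after seeing the data. Genes with at least 1 scaled TPM in at least 4 libraries were tested with limma 3.58.1 in R 4.3.3 (trend, plasmid as block, 5 residual degrees of freedom) on log2(scaled TPM + 1), which understates changes of low genes, with Benjamini-Hochberg adjustment. Overlapping and antisense genes are uncertain without strand. On simulated data with 100 genes changed by a log2 of 3 and 100 by 1.5 among 11963, 77% and 45% were recovered, and 3.17% of the calls were false. The simulation drew independent normal noise around each gene's mean and changed only genes above a set level. It held no unnamed transcripts, length trend or lean to the 3' end, so that share is not the share of false calls in these data.

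The members, 35 gene lists and tests were chosen with earlier results of these data known. The text names Myod1, the LncMyoD locus, 20 markers, up to 12 largest changes per direction and up to 4 called members per list and direction whose groups do not overlap; other members are named from their lists after their values were seen. Alternatives were other scalings, pseudocounts, filters, fits and gene values, a replicate block and leaving out each library. Knockout clone 1 was not used, except in the fit over all 24 libraries. A gene that the rule would name is not reported here.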

Additional observations from a re-analysis of the deposited data

Results flagged for a closer look

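In each named gene the 4 libraries with virus and the 4 without were checked for a library that stands apart, by its gap to the nearest other library over the range of the 4, against Dixon's critical value at 95%. Of 228 sets, 42 passed. Chance flags about 1 in 20 where values are normally distributed, which sets with values at 0 are not. A set with 1 library above 3 at 0 has a ratio of 1.0 at any level. The 228 also include sets at 0 in all 4 libraries, which cannot pass, so the 42 cannot be set against that rate. Ratios were 1.0, with 1 library above 3 at 0, in Mymk, H19, Cck and Cox6a2 without virus and in Olfml2b, Phka1, Dusp5, Plk1, Chac1, Igfbp2, Parp14, Il6 and Tek with virus. The ratio sets a gap against the range of the 4 libraries and says nothing of its size. With virus, 1 library stood apart as the highest in Col6a1 (0.999), Dse (0.998), Prpf8 (0.997), Gpc1 (0.996), Col4a2 (0.992), Kif11 (0.975), Sirpa (0.97), Eln (0.923), Capn2 (0.866), Rps3 (0.858) and Pdia3 (0.841). In Sirpa that library had only 0.0445 scaled TPM, and the next 0.00129. Prpf8, a core splicing factor gene, had 24.8, 0, 0 and 0.0105 scaled TPM with virus, against 47.7, 59.3, 68.8 and 55.7 without, and -0.41 (adjusted p = 0.252, limma) with unnamed transcripts added. With virus, 1 library stood apart as the lowest in Tap1 (0.903), Cox8b (0.898), Egr1 (0.885), Mcm5 (0.862), Id3 (0.844), Myl1 (0.836), Tcf12 (0.834) and Pdia4 (0.83). Virus alone replicate 2 was that library for Tap1, Cox8b, Id3, Myl1 and Pdia4. The gap was small in Egr1, at 28.9 scaled TPM against 36.7 to 37.8, and in Id3, at 323 against 361 to 369. Without virus, 1 library was lowest in Tcf12 (0.954), Stard4 (0.938), Ndufb3 (0.911), Id1 (0.876), Fosb (0.87), Nfkbiz (0.862), Hes1 (0.852) and Hes6 (0.848), and highest in Ifit3 (0.912) and Mymx (0.852). Untreated replicate 1 was the low library for Hes1, Fosb and Nfkbiz.

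In the test of the difference between plasmid arms, the signed difference was positive for Fam120a (5.39) and Col4a1 (5.14). Their log2 changes were -0.16 and -1.615 with the plasmid, smaller falls than without it (-5.55 and -6.76). The difference was negative for Col1a2 (-6.76), Crk (-5.49) and Nckap1 (-4.16). Their log2 changes were -7.5, -4.96 and -4.08 with the plasmid, against -0.74, 0.53 and 0.07 without. Such values depend on the pseudocount where a group is listed at 0, as for Crk and Fam120a. None of these differences was called with unnamed transcripts added.

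In the test of the difference from wild type, the log2 change was higher in clone 2 for Psmc1 (5.01), Fkbp15 (4.83), Tnnc2 (4.79), Vps41 (4.68), Capns1 (4.32), Shoc2 (4.12), Znhit1 (4.05) and Tnni2 (3.93). It was lower in clone 2 for Rnf4 (-8.76), Fosb (-6.65), March6 (-6.5), Xylt2 (-5.91), Glg1 (-5.87), Lpgat1 (-5.76), Col11a1 (-5.6) and Sirpa (-5.5). Of these 16, Tnnc2, Capns1, Fosb and March6 were also called in the same direction with unnamed transcripts added. Fkbp15 met the call rule there in the opposite direction, at -1.1 (adjusted p = 0.0294, limma). Psmc1 (-1.03), Vps41 (-0.30), Shoc2 (-0.03), Rnf4 (0.0082) and Lpgat1 (1.21) also changed sign and were not called there. These differences depend on the pseudocount where a group is listed at 0, as Tnnc2 is without virus in both lines.

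The transcript at the LncMyoD locus, which enters no test, was listed in 4 of the 8 clone 2 libraries, those given the plasmid: 4.48 and 3.47 TPM with virus, and 11.9 and 11 TPM without.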

How the results depend on the processing

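The pooled count of 1459 called genes stayed within 1.5 times under every alternative except the fit over all 24 libraries, which called 846 (289 higher, 557 lower). That fit called 386 genes in cells without the plasmid and 353 in cells with it, against 842 and 790. The pooled count was 1030 to 1431 when 1 library was left out, 987 without the filter, 1408 with unnamed transcripts added and 1168 with the length trend removed. The difference between plasmid arms, 6 genes, became 11 with a pseudocount of 0.1, 1 without the filter, 27 over all 24 libraries, 0 with unnamed transcripts added, and 0 to 16 when 1 library was left out. The difference from wild type, 527 genes, became 1287 without scaling and 264 to 727 when 1 library was left out. Of 114 named genes, 19 lost their call with unnamed transcripts added, 33 over all 24 libraries and 6 to 12 when 1 library was left out. Stard4 turned to 0.80 with unnamed transcripts added and Parp14 to 0.21 when coverage times length was used with them; each was called lower in the main measure, and the cause was not tested. With the replicate number as a block, 1375 genes were called; deviations of same-numbered libraries correlated at -0.039 to 0.024 across genes, so the numbers were not taken to pair the libraries. Without read counts, precision cannot be set per gene, and values near 1 scaled TPM are uncertain.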

Other observations

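Several genes outside the lists moved with large values. Car3, muscle carbonic anhydrase, had 99.7, 73.5, 66.1 and 79.1 scaled TPM with virus, against 10.3, 6.28, 5.41 and 8.51 without (log2 change 3.24 ± 0.22, adjusted p = 0.000248, limma). Inmt, a methyltransferase gene, rose by 3.12 and Hmga1, a chromatin protein gene, by 1.86 on the log2 scale. Tceal7 averaged 12.1 scaled TPM with virus and was listed at 0 in all 4 libraries without. Saa3, an acute phase protein gene, rose to 57.3, 62.3, 72.5 and 65.0 scaled TPM with virus, against 10.4, 12.5, 16.4 and 18.1 without. It rose alone among 23 inflammation genes tested, of which 5 fell. All 6 held in both measures, beside 1.74% higher and 5.71% lower of all genes. Of the falls, Il6, Nfkbiz and Vcam1 lost their calls over all 24 libraries, with adjusted p of 0.0519 to 0.502 (limma).

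Regulators of signalling were among the falls. Socs3, an inhibitor of cytokine signalling, had 25.7, 15.0, 20.7 and 19.2 scaled TPM with virus, against 233, 151, 200 and 134 without (-3.08 ± 0.23, adjusted p = 0.000279, limma). Slc25a25, a mitochondrial carrier gene (-3.15), Trib1 (-3.07), the repressor Nfil3 (-2.96) and the circadian repressor Ciart (-2.57) fell as well. Of 21 genes linked to FoxO and serum withdrawal, 2 were called lower, a share close to the 9.96% of all genes, and 1 of these held in both measures, Sgk1 at -2.75, which was not called over all 24 libraries (adjusted p = 0.14, limma). Of 18 cholesterol genes tested, 1 was called higher and 3 lower, beside 2.23% and 9.96% of all genes. In both measures 1 of the falls held, a share close to the 5.71% of all genes: Sqle, squalene epoxidase, at -3.17. That call was lost when any library but virus alone replicate 2 and virus with plasmid replicate 1 was left out, with adjusted p of 0.0684 to 0.107 (limma).

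By class of gene, 2.22% of 9314 protein-coding genes were called higher and 10.7% lower. Processed pseudogenes, which are short, were called at 2.92% in each direction among 1300, and 15.8% of 404 genes of the class still to be experimentally tested (TEC) were called lower.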
